A study of Mus musculus with 7 samples.

Results

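The TGF-beta genes described here are the 3 ligands Tgfb1, Tgfb2 and Tgfb3, the receptors Tgfbr1, Tgfbr2 and Tgfbr3, the latent TGF-beta binding proteins Ltbp1, Ltbp3 and Ltbp4, and the inhibitory Smad gene Smad7. They are 10 of the 55401 genes in a table of raw read counts from mouse lung. They were listed by name with earlier results of these data known, so their counts against a background are a description. All 10 were found by symbol and had enough reads to be tested. All 7 mice were male C57BL/6 animals aged 6 to 8 weeks that had received bleomycin, an antibiotic that injures the lung and leaves fibrosis, through the trachea. In 4 of them (BLM) bleomycin was the only agent given, and the other 3 (BLM+HBO) also breathed hyperbaric oxygen (HBO), which is oxygen in a pressure chamber, at 2.5 ATA for 90 min a day over 14 days from day 7. The right lung lobes of every mouse were taken on day 21 and sequenced as 1 library per mouse. Both groups carry the bleomycin injury and no uninjured lung was analysed here, so each comparison shows how BLM+HBO lungs differed from BLM lungs and not how either differed from healthy lung. The sample records describe the BLM mice as placed in the chamber without pressurised oxygen, whereas the methods describe them as untreated, and which applied is not settled here. The methods also state that mice with too little weight loss after bleomycin were left out, which limits both groups to animals with an evident response to it.

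Transforming growth factor beta is made as a precursor that furin cuts into a mature ligand and a latency-associated peptide, and both stay bound together so that the ligand cannot reach its receptors. Inside the cell this latent pair is usually linked to a latent TGF-beta binding protein, which anchors it in the extracellular matrix until integrins or proteases free the ligand. Free ligand binds the type II receptor (Tgfbr2), which phosphorylates the type I receptor (Tgfbr1), while betaglycan (Tgfbr3) presents the ligand and Smad7 shuts the activated receptor down. In the lung this pathway is known for turning fibroblasts into contractile, collagen-producing myofibroblasts, which is why it is central to work on lung fibrosis.

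The ligands differ in the stretches of coding sequence by which they are cut and released, and both stretches are shown because the genes that act on them are described further on. Each is read from the GENCODE vM21 transcripts of GRCm38 in the direction of the gene, with its position in the genome. The first set spans the furin cut, and the capitals mark the codons of the basic site directly before the mature ligand, in the coding sequence of exon 5 of Tgfb1 and Tgfb3 and of exon 6 of Tgfb2.
Tgfb1, chr7:25697226-25697255, plus strand: cacagctcaCGGCACCGGAGAgccctggat
Tgfb2, chr1:186630627-186630656, minus strand: tccagccggCGGAAGAAGCGCgctttggat
Tgfb3, chr12:86062045-86062074, minus strand: ggcagtcagAGGAAGAAGAGGgccctggac
The second set lies in the latency-associated part of the same exons. The capitals mark the codons of the Arg-Gly-Asp motif, the short sequence that integrins bind, in Tgfb1 and Tgfb3, and the codons aligned with that motif in Tgfb2, the first of which encodes serine.
Tgfb1, chr7:25697133-25697159, plus strand: cccaaacgtCGGGGCGACctgggcacc
Tgfb2, chr1:186630744-186630770, minus strand: acatatgccAGTGGTGATcagaaaact
Tgfb3, chr12:86062156-86062182, minus strand: gaccatggcCGTGGAGACctggggcgt
All 3 precursors held the basic site, whereas the Arg-Gly-Asp motif was found 1 time in Tgfb1, 0 times in Tgfb2 and 1 time in Tgfb3. The translated precursors were 390, 442 and 412 residues long, and each ended in a mature ligand of 112 residues. They came from the longest complete coding transcript of each gene, and that choice also sets the exon numbers given above. The mature ligands were 72.3% identical between Tgfb1 and Tgfb2, 77.7% between Tgfb1 and Tgfb3 and 78.6% between Tgfb2 and Tgfb3. The latency-associated parts, taken as the whole precursor before the cut, were less alike, at 39.9%, 39.1% and 50.5% for the same pairs. Identity was counted over aligned residues, with gaps left out.

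The libraries held from 18157161 to 26365969 counted reads, and a single TGF-beta gene held between 874 reads (Tgfb3 in BLM+HBO 1) and 15657 reads (Ltbp4 in BLM+HBO 3). Levels are given as CPM, the reads of a gene per 1000000 reads of the library after TMM scaling, and differences as log2 fold changes of BLM+HBO over BLM from edgeR's quasi-likelihood test on 17465 genes. A gene was called where its unadjusted P lay below 0.05 and its fold change above 1.5, the thresholds of the study. Libraries of 1 group differed by a chi-square of 22.1 to 64.3 per gene, and the lowest value between the groups was 13.0, for BLM 4 against BLM+HBO 2. BLM+HBO 2 therefore stood nearer to the BLM mice than to the other mice of its own group, and the log2 fold changes that the results turn on are also given without it. It was singled out for that nearness, so leaving it out tends to widen group differences, and values without it are no added support. In bulk tissue, fewer cells of a type and less RNA per cell cannot be told apart.

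Of the 10 TGF-beta genes, 2 were called lower in BLM+HBO lungs, the ligand Tgfb3 and the latency protein Ltbp1, and none was called higher. The background over all tested genes was 2.89% called lower and 3.40% called higher. At an unadjusted P below 0.05 with no limit on the fold change, 4 of 10 were lower (Tgfb1, Tgfb3, Tgfbr2 and Ltbp1) against a background of 5.54%, and 0 were higher against a background of 5.11%. None of the 10 passed a Benjamini-Hochberg adjusted P of 0.05 in edgeR, in DESeq2 or in limma. Over all genes 0% passed in edgeR, where the lowest adjusted P was 0.423 and 1861 genes had an unadjusted P below 0.05. At the same adjusted limit, 128 genes passed in DESeq2 and 0 in limma. The median log2 fold change was −0.11 over the 10 genes and 0.0071 over all tested genes. The log2 fold change was below 0 for all but Ltbp4, against 48.8% of all tested genes. Tgfbr3 turned to the other side with upper-quartile scaling, at 0.012, and with the replicate block. Signs also turned with a mouse left out for Tgfb2, Tgfbr1, Tgfbr3, Ltbp3 and Ltbp4. Without BLM 1 or without BLM+HBO 1 none was called, without BLM 2 or without BLM+HBO 3 there was 1, and both genes were called without BLM+HBO 2.

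**Figure D1:**
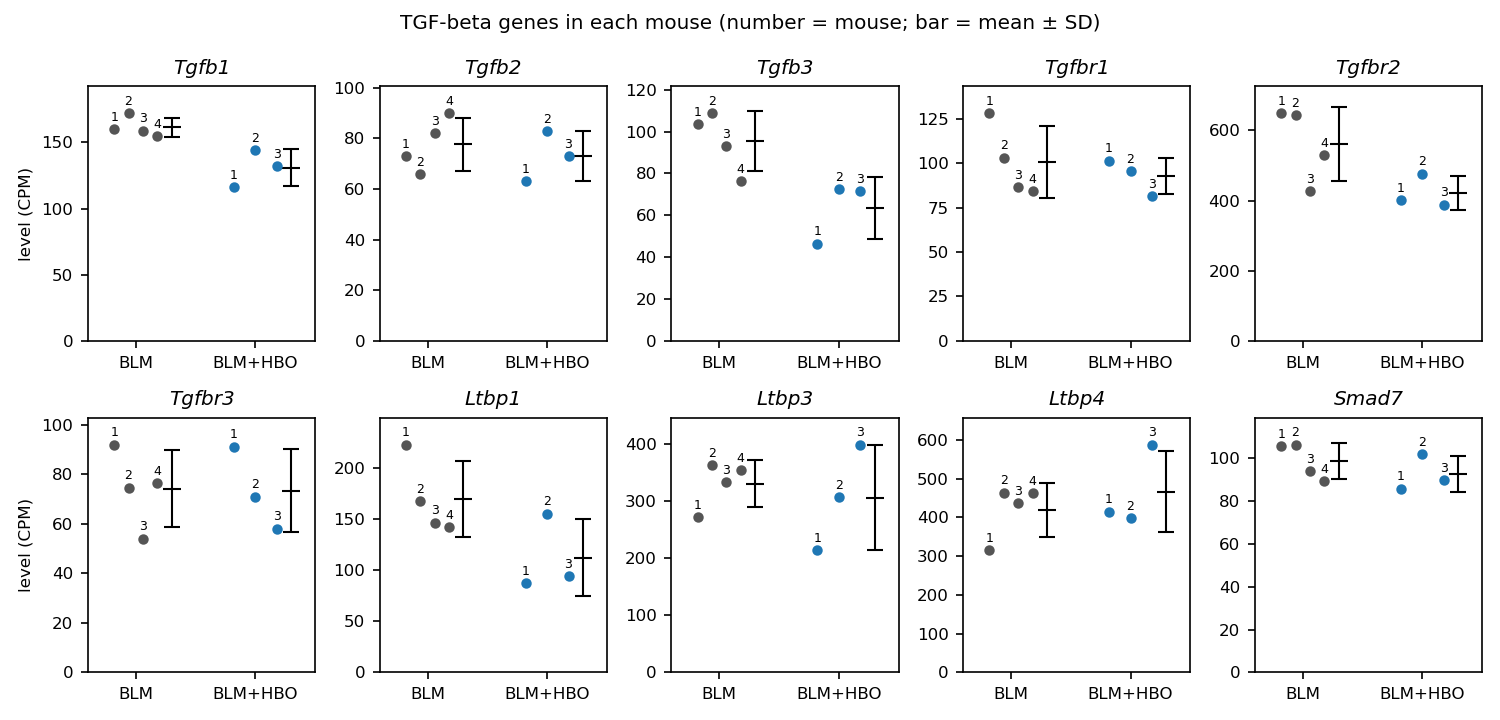
Level of each TGF-beta gene (vertical axis, CPM, starting at 0) in the 4 BLM mice (grey) and 3 BLM+HBO mice (blue), with the mouse number over each point and the mean ± s.d. beside the points. The BLM and BLM+HBO points do not overlap for Tgfb1 and Tgfb3 and overlap for the other 8 genes.

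Tgfb1 (ENSMUSG00000002603.15, chr7:25687002-25705077, plus strand) encodes the ligand most often linked to fibrosis. It stood at 159.8, 172.0, 158.8 and 154.9 CPM in the 4 BLM mice and at 116.3, 143.9 and 132.1 CPM in the 3 BLM+HBO mice. Every BLM+HBO mouse lay below every BLM mouse, which was so for 2 of the 10 genes (Tgfb1 and Tgfb3), against 4.72% of all tested genes. No TGF-beta gene lay above the BLM range in every BLM+HBO mouse, against 4.05% of all tested genes. The means were 161 ± 7.39 CPM in BLM (s.d., n = 4) and 131 ± 13.8 CPM in BLM+HBO (s.d., n = 3). By edgeR the log2 fold change was −0.30 ± 0.11 (SE, 95% confidence interval −0.54 to −0.06), with an unadjusted P below 0.05 and a Benjamini-Hochberg adjusted P = 0.423. The gene had the tightest BLM group relative to its mean of the 3 ligands. Its unadjusted P rose above 0.05 when BLM 2 (log2 fold change −0.27) or BLM+HBO 1 (−0.23) was left out, and stayed below it without BLM+HBO 2 (−0.38).

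Tgfb3 (ENSMUSG00000021253.7, chr12:86056745-86079041, minus strand) encodes the ligand that shares the integrin motif with Tgfb1. Its level was 103.4, 108.7, 93.1 and 76.3 CPM in the BLM mice and 46.5, 72.4 and 71.7 CPM in the BLM+HBO mice. The ranges did not overlap, though BLM 4 lay only just above BLM+HBO 2, and BLM+HBO 1 was the lowest by a wide gap. The group means were 95.4 ± 14.3 CPM (s.d., n = 4) and 63.5 ± 14.7 CPM (s.d., n = 3). Tgfb3 stood at 0.666 times the BLM level, a log2 fold change of −0.59 ± 0.18 (SE, 95% confidence interval −0.99 to −0.18) with an unadjusted P below 0.05 and, by edgeR, a Benjamini-Hochberg adjusted P = 0.423. Its P stayed below 0.05 with each mouse left out. The fold change came under 1.5 when BLM 1 (log2 −0.54), BLM 2 (−0.52) or BLM+HBO 1 (−0.41) was left out, and leaving out BLM+HBO 2 gave −0.69. It also came under 1.5 with upper-quartile scaling (−0.56) and with a filter of 1 CPM in 3 mice (−0.58), so the value lay at the limit itself. Of the exon bases of Tgfb3, 12.4% also lie in the unnamed genes Gm48008 and Gm37804 on the other strand, and counting without strand leaves out reads that overlap both.

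Tgfb2 (ENSMUSG00000039239.14, chr1:186622792-186705989, minus strand) encodes the ligand without the integrin motif. It was measured at 72.9, 65.8, 81.9 and 89.9 CPM in BLM and at 63.2, 82.8 and 73.0 CPM in BLM+HBO. The BLM+HBO mice fell within or just under the BLM range. The log2 fold change was −0.09 ± 0.14 (SE), with a Benjamini-Hochberg adjusted P = 0.849 by edgeR and a 95% confidence interval of −0.40 to 0.22, which holds both 0 and the value of Tgfb1.

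**Figure D2:**
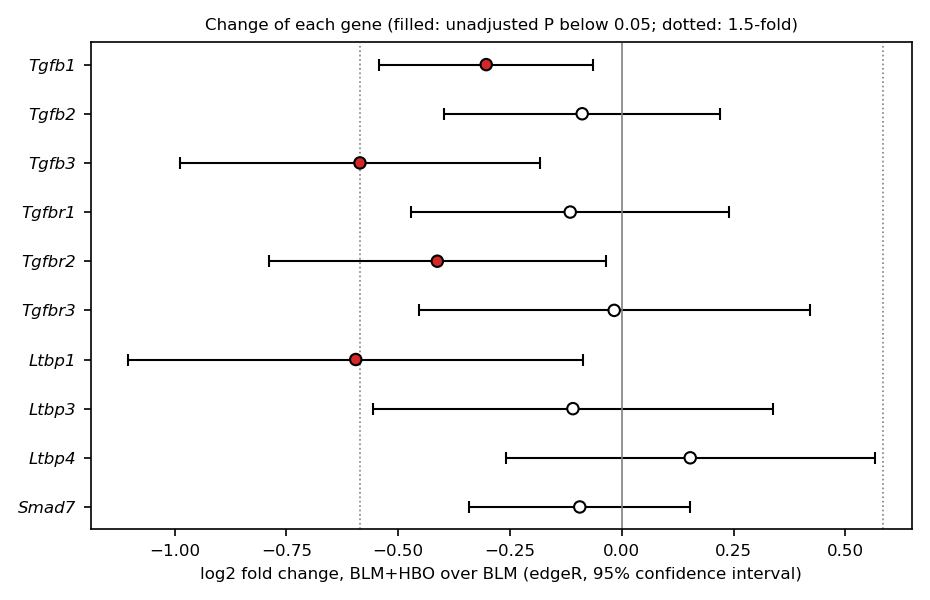
Log2 fold change of BLM+HBO over BLM (horizontal axis) with its 95% confidence interval for each TGF-beta gene, from edgeR on 7 mice; filled points had an unadjusted P below 0.05 and dotted lines mark a fold change of 1.5 either way. The intervals of Tgfb1, Tgfb3, Tgfbr2 and Ltbp1 lie wholly below 0, and the points of Tgfb3 and Ltbp1 lie at −0.59.

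Levels of different genes were compared per kilobase of exon length, since a longer gene collects more reads. On that scale Tgfb1 made up 43.5% ± 1.01 (s.d., n = 4) of the 3 ligands in BLM and 45.5% ± 2.50 (s.d., n = 3) in BLM+HBO. The share of Tgfb3 was 40.8%, 41.4%, 37.6% and 32.8% in the BLM mice and 28.8%, 33.3% and 35.3% in the BLM+HBO mice. Its mean share differed by −5.69 percentage points, and the ranges overlapped through BLM 4. Tgfb2 held 18.3% ± 3.41 of the ligands in BLM and 22.04% ± 0.944 in BLM+HBO. Tgfb1 was the most abundant ligand in every mouse, and Tgfb2 the least abundant.

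**Figure D3:**
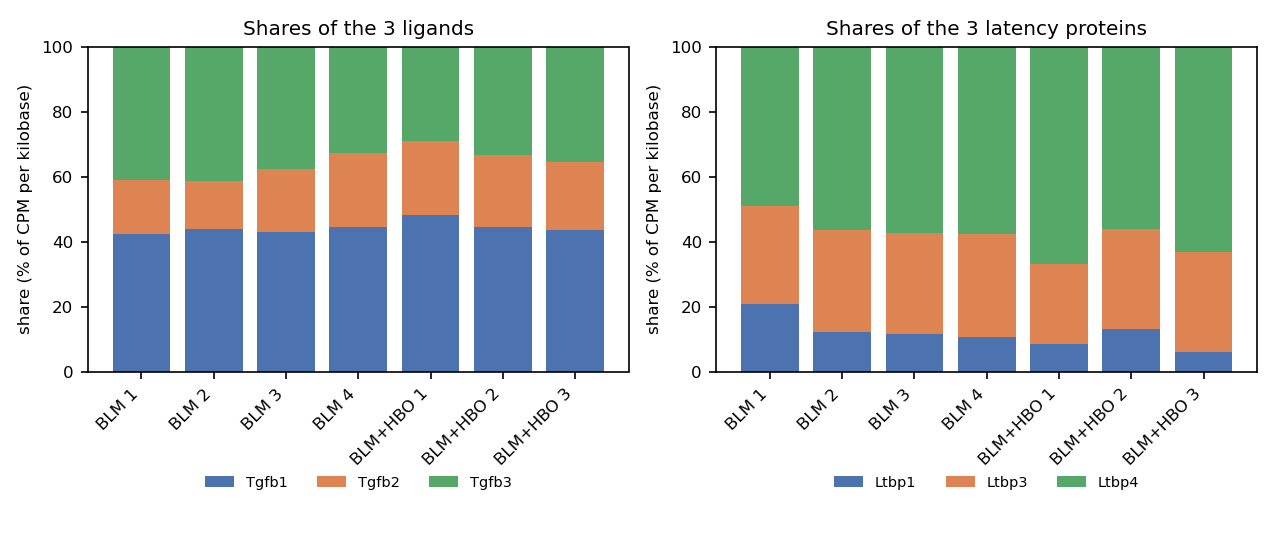
Share of the summed CPM per kilobase (vertical axis, percent) held by each ligand (left) and each latency protein (right) in each of the 7 mice. Tgfb3 takes 28.8% to 35.3% of the ligands in BLM+HBO mice and 32.8% to 41.4% in BLM mice, and Ltbp1 takes 20.9% of the latency proteins in BLM 1 and 6.16% in BLM+HBO 3.

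Ltbp1 (ENSMUSG00000001870.16, chr17:75005568-75392512, plus strand) encodes a latency protein that ties latent ligand to fibronectin and fibrillin fibres. Its level was 223.1, 167.7, 146.8 and 142.5 CPM in the BLM mice and 87.4, 155.7 and 94.6 CPM in the BLM+HBO mice. BLM 1 was the highest of the 7 mice and BLM+HBO 2 lay inside the BLM range, while the other two BLM+HBO mice lay below all BLM mice. The means were 170 ± 37.1 CPM (s.d., n = 4) and 113 ± 37.5 CPM (s.d., n = 3). The gene stood at 0.662 times the BLM level, a log2 fold change of −0.59 ± 0.23 (SE, 95% confidence interval −1.10 to −0.09) with an unadjusted P below 0.05 and, by edgeR, a Benjamini-Hochberg adjusted P = 0.438. Of the 4 TGF-beta genes with an unadjusted P below 0.05 it moved most with single mice. Leaving out BLM+HBO 2 gave −0.90. The unadjusted P rose above 0.05 when BLM 1 (−0.44), BLM+HBO 1 (−0.44) or BLM+HBO 3 (−0.49) was left out, and the fold change came under 1.5 with upper-quartile scaling (−0.57).

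Ltbp3 (ENSMUSG00000024940.11, chr19:5740904-5758532, plus strand) and Ltbp4 (ENSMUSG00000040488.18, chr7:27305136-27337692, minus strand) encode the other latency proteins, the second of which is also needed for elastic fibres. Ltbp3 was measured at 272.1, 363.1, 333.2 and 354.8 CPM in BLM and at 213.8, 307.0 and 399.1 CPM in BLM+HBO. Ltbp4 was measured at 315.4, 463.4, 436.6 and 461.7 CPM in BLM and at 414.3, 397.3 and 587.1 CPM in BLM+HBO. The BLM+HBO mice spanned the BLM range of Ltbp3 on both sides, and BLM+HBO 3 was the highest mouse for both genes. The log2 fold changes were −0.11 ± 0.20 (SE, 95% confidence interval −0.56 to 0.34) for Ltbp3 and 0.15 ± 0.18 (SE, −0.26 to 0.57) for Ltbp4. Each changed sign when 1 mouse was left out, Ltbp3 to 0.094 without BLM+HBO 1 and Ltbp4 to −0.052 without BLM+HBO 3.

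Per kilobase, Ltbp4 was the most abundant latency protein gene in every mouse, at 55.03% ± 4.09 of the 3 in BLM (s.d., n = 4) and 62.0% ± 5.56 in BLM+HBO (s.d., n = 3). Ltbp1 was the least abundant, with 20.9%, 12.3%, 11.6% and 10.8% in the BLM mice and 8.53%, 13.3% and 6.16% in the BLM+HBO mice. The share in BLM 1 was well above that of the other 6 mice, and the groups overlapped. The summed latency proteins stood at 1.60 ± 0.195 times the summed ligands in BLM and at 2.04 ± 0.344 times in BLM+HBO. In single mice the ratio ran from 1.33 to 1.80 in BLM and was 2.01, 1.71 and 2.40 in BLM+HBO, so that BLM+HBO 2 again lay inside the BLM range. Without BLM+HBO 2 the difference of this ratio was 0.605 rather than 0.441, and without BLM+HBO 3 it was 0.262.

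Tgfbr2 (ENSMUSG00000032440.13, chr9:116084293-116175360, minus strand), the type II receptor that binds the ligand first, was the receptor with the highest level. It was measured at 648.4, 643.0, 426.1 and 528.3 CPM in the BLM mice and at 401.1, 476.6 and 387.9 CPM in the BLM+HBO mice. BLM 3 lay among the BLM+HBO mice, and the other three BLM mice lay above all of them. The means were 561 ± 106 CPM (s.d., n = 4) and 422 ± 47.9 CPM (s.d., n = 3). The log2 fold change was −0.41 ± 0.17 (SE, 95% confidence interval −0.79 to −0.04), with an unadjusted P below 0.05 and, by edgeR, a Benjamini-Hochberg adjusted P = 0.448. The fold change did not reach 1.5. Its unadjusted P rose above 0.05 when BLM 1 (log2 fold change −0.34), BLM 2 (−0.34), BLM+HBO 1 (−0.38) or BLM+HBO 3 (−0.36) was left out, and stayed below it without BLM+HBO 2 (−0.51).

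Tgfbr1 (ENSMUSG00000007613.15, chr4:47353222-47414931, plus strand) encodes the type I receptor kinase that phosphorylates Smad2 and Smad3. It stood at 128.0, 103.1, 86.5 and 84.2 CPM in BLM and at 101.4, 95.3 and 81.6 CPM in BLM+HBO, and BLM 1 alone lay well above the rest. The log2 fold change was −0.12 ± 0.16 (SE, 95% confidence interval −0.47 to 0.24), and 0.023 without BLM 1. Tgfbr3 (ENSMUSG00000029287.14, chr5:107106570-107289629, minus strand), which encodes the co-receptor betaglycan, stood at 92.0, 74.6, 54.1 and 76.4 CPM in BLM and at 91.2, 71.0 and 58.1 CPM in BLM+HBO. The groups lay over each other, with a log2 fold change of −0.02 ± 0.20 (SE, 95% confidence interval −0.45 to 0.42) whose sign turned under 5 alternatives. Tgfbr2 stood at 4.49 ± 0.583 times Tgfbr1 per kilobase in BLM and at 3.65 ± 0.436 times in BLM+HBO, and the mice of both groups overlapped in this ratio.

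Smad7 (ENSMUSG00000025880.11, chr18:75367529-75395935, plus strand) is switched on by TGF-beta signalling and in turn blocks the type I receptor. It stood at 105.4, 106.1, 93.7 and 89.1 CPM in BLM and at 85.7, 101.7 and 89.7 CPM in BLM+HBO. BLM+HBO 1 alone lay below the BLM range. The log2 fold change was −0.09 ± 0.11 (SE, 95% confidence interval −0.34 to 0.15). None of Tgfb2, Tgfbr1, Tgfbr3, Ltbp3, Ltbp4 and Smad7 had an unadjusted P below 0.05 in any of the 14 alternatives or with the design used here. Leaving out BLM+HBO 2 gave −0.19 for Tgfb2, −0.14 for Tgfbr1, 0.0044 for Tgfbr3, −0.11 for Ltbp3, 0.25 for Ltbp4 and −0.17 for Smad7.

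In order of level per kilobase, the BLM lungs had Tgfbr2 and Ltbp4 on top, at 68.6 ± 12.9 and 64.9 ± 10.9 CPM per kilobase, which did not differ beyond their spread. Ltbp3 (36.5 ± 4.54) and Tgfb1 (32.0 ± 1.46) came next and overlapped in range, followed by Tgfb3 (28.2 ± 4.22) and Smad7 (21.8 ± 1.88), which also overlapped. The low end held Ltbp1 (15.9 ± 3.47), Tgfbr1 (15.4 ± 3.09), Tgfb2 (13.4 ± 1.82) and Tgfbr3 (11.3 ± 2.38), each overlapping its neighbour. Only Ltbp4 and Ltbp3 did not overlap as neighbours in this order. In BLM+HBO lungs the order of means was Ltbp4 (72.1 ± 16.2), Tgfbr2 (51.5 ± 5.85), Ltbp3 (33.8 ± 10.2), Tgfb1 (25.9 ± 2.75), Smad7 (20.4 ± 1.84), Tgfb3 (18.8 ± 4.35), Tgfbr1 (14.2 ± 1.55), Tgfb2 (12.6 ± 1.69), Tgfbr3 (11.2 ± 2.55) and Ltbp1 (10.5 ± 3.51). Ltbp4 lay above Tgfbr2 in each of the 3 BLM+HBO mice, Tgfbr2 above Ltbp3 and Tgfb1 above Smad7 without overlap, and the other neighbours overlapped. Ltbp1 went from rank 7 in BLM to rank 10, and its BLM+HBO range overlapped that of the 3 genes ranked before it.

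**Figure D4:**
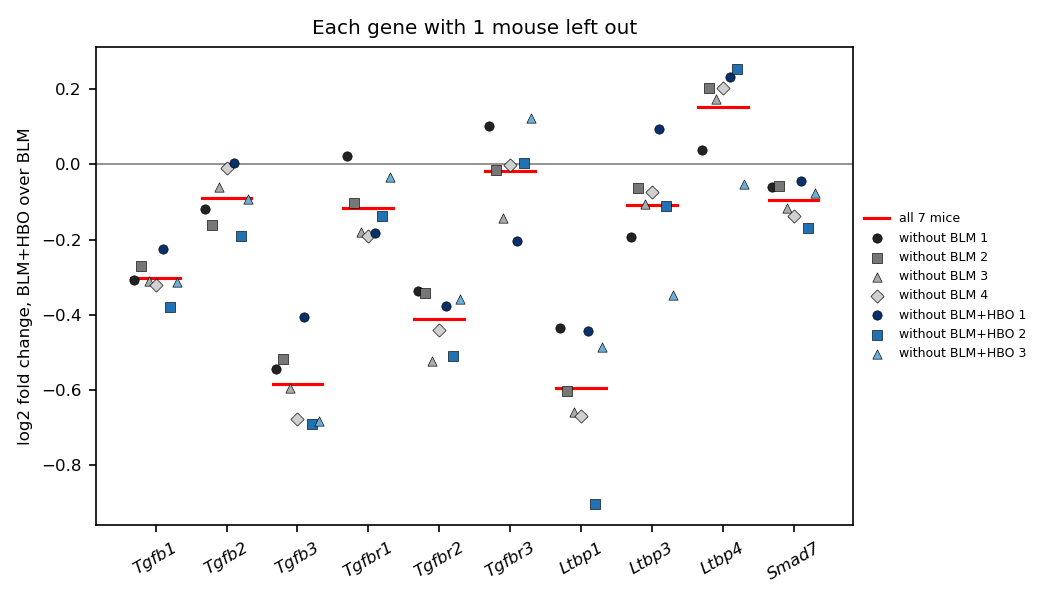
Log2 fold change of BLM+HBO over BLM (vertical axis) for each TGF-beta gene with all 7 mice (red line) and with 1 mouse left out at a time (grey marks for a BLM mouse, blue marks for a BLM+HBO mouse). Ltbp1 spreads most among the genes past a P of 0.05, from −0.90 without BLM+HBO 2 to −0.44 without BLM 1, and Tgfb1, Tgfb3, Tgfbr2, Ltbp1 and Smad7 stay below 0 throughout.

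The start regions of 3 genes that were lower at an unadjusted P below 0.05 are printed from RefSeq (GRCm38.p6), each from 250 bases before to 50 bases after a transcription start, in the direction of the gene. For Ltbp1, which has a pair of starts in the table, the one nearer the 5′ end of the gene is shown, and the table used here has no entry for Tgfb3, Tgfbr3 and Smad7. Capitals mark matches on either strand to 4 motifs. The core of a hypoxia response element was searched in 1 form only, ACGTG, which also lies within some E-boxes. Its other form, GCGTG, was not searched, and a window without ACGTG may hold it. A Smad-binding sequence was searched as CAGACA. The GC box was searched as GGGCGG, whose matches may overlap each other, and the TATA box as TATAAA.
Tgfb1, chr7:25686752-25687051, plus strand: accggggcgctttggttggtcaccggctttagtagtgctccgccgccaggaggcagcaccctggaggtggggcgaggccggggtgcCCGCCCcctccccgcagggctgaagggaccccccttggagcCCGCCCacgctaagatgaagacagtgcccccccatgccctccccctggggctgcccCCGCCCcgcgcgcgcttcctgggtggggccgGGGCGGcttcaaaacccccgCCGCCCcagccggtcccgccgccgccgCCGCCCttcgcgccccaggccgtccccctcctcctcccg
Tgfbr2, chr9:116175314-116175613, minus strand: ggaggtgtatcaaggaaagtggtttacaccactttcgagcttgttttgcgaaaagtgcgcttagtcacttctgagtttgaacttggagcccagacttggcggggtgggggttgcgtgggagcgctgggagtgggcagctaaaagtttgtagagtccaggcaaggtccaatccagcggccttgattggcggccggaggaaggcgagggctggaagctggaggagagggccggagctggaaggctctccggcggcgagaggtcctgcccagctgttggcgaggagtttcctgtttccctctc
Ltbp1, chr17:75005279-75005578, plus strand: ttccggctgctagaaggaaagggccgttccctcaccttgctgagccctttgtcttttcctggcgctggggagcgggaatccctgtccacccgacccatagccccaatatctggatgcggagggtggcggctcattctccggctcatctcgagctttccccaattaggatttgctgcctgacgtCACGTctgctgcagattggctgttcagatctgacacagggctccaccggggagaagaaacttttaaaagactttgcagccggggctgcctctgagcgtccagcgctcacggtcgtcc
The Tgfb1 window held 6 matches to GGGCGG and none of the other 3 motifs, with a GC content of 77%, against a median of 52.7% over all windows. The Ltbp1 window held 1 match to ACGTG, 67 bases before the start. The window of its other start, chr17:75178531-75178830, held 2 matches to CAGACA and none to the other motifs, and the Tgfbr2 window held none of the 4 motifs. Of 32851 promoter windows of this length, 35.7% held GGGCGG, 19.6% ACGTG, 21% CAGACA and 13.6% TATAAA. A match is only a match of letters, and binding was not measured.

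For the 4 genes past an unadjusted P of 0.05, the genes that followed them most closely over the 7 mice were sought by the root mean square difference of log2 CPM after centring. Nearest to Tgfb1 were Gpr137b (0.032), Camk1 (0.042) and Gorasp2 (0.043), beside a spread of Tgfb1 itself of 0.178. Nearest to Tgfb3 were B4galt2 (0.064), the insulin-like growth factor binding protein gene Igfbp7 (0.075) and the lysyl oxidase-like gene Loxl1 (0.079), beside a spread of 0.385. Plxnc1 (0.049), Wipi1 (0.060) and Dpysl3 (0.069) were nearest to Tgfbr2, beside a spread of 0.285. Slc7a5 (0.074), Tfec (0.081) and the actin-binding caldesmon gene Cald1 (0.083) were nearest to Ltbp1, beside a spread of 0.435. Each of these genes was taken from all 17465 tested genes for its likeness, so their likeness is a description.

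Beyond the 10 genes, 4 lists of other genes of the pathway were read from the same fit. These lists were chosen with earlier results of these data known. Their counts beside the shares over all genes are therefore a description and no independent support. Log2 fold changes in them are given with their SE, none of these genes had a Benjamini-Hochberg adjusted P below 0.05 in edgeR with all 7 mice and the filter on low counts, and no list was tested as a whole. Adjusted P values under the alternatives were read only for the genes picked from each list by lowest P, so other genes of the lists may have passed too. Without the filter, Dab2, Pmepa1, Acta2, Cthrc1, Il11, Tgfbi, Cd109 and Mmp14 had adjusted P values from 0.014 to 0.036 in edgeR. In that fit 387 genes over all genes passed, against 0 with the filter, so these values are no added support. Without BLM+HBO 2, Dab2, Mmp14, Tgfbi, Itgb3, Acta2 and Pmepa1 had adjusted P values from 0.019 to 0.046 in edgeR, and with DESeq2 Tgfbi had 0.016. Leaving out BLM+HBO 2 removes the treated mouse nearest to the BLM group. In that edgeR fit 267 genes over all genes passed, against 0 with all mice, so these values are no added support. The first list held 16 genes whose products hold latent TGF-beta or release it, among them integrins, the processing protease furin, matrix metalloproteinases and fibrillins. Of these, 7 were lower at an unadjusted P below 0.05, 2 of which were called (Mmp14 and Fbn1), against 5.54% and 2.89% of all tested genes, and none was higher. The median log2 fold change was −0.53. Furin, whose product makes the cut shown above, stood at 293.7, 273.5, 248.1 and 259.2 CPM in BLM and at 126.0, 223.7 and 190.3 CPM in BLM+HBO, without overlap, with a log2 fold change of −0.58 ± 0.18 (SE), and −0.77 with BLM+HBO 2 left out. Without BLM+HBO 1 the log2 fold change of Furin was −0.38. Of the integrin chains that bind the Arg-Gly-Asp motif, lower values were found for Itgb3 (−0.53 ± 0.17), Itgav (−0.49 ± 0.18) and Itgb5 (−0.54 ± 0.20). With BLM+HBO 2 left out they gave −0.76, −0.64 and −0.75. The unadjusted P rose above 0.05 for Itgb3 when BLM+HBO 3 was left out (−0.42), for Itgav when BLM+HBO 1 (−0.47) or BLM+HBO 3 (−0.39) was, and for Itgb5 when BLM 1 (−0.45), BLM 2 (−0.46), BLM+HBO 1 (−0.37) or BLM+HBO 3 (−0.53) was. The common chain Itgb1 (−0.24 ± 0.15), the epithelial chain Itgb6 (−0.14 ± 0.20) and the chain Itgb8 (−0.71 ± 0.50) had no unadjusted P below 0.05. Mmp14, a membrane-bound matrix protease, had a log2 fold change of −0.82 ± 0.30 (SE). Leaving out BLM+HBO 2 gave −1.29 for it, leaving out BLM+HBO 1 gave −0.51, and it lost its call in the second case and when BLM+HBO 3 was left out (−0.78). The list had 10 genes called lower without BLM+HBO 2, 5 without BLM 4, 4 without BLM 3, and 1 when BLM 1, BLM+HBO 1 or BLM+HBO 3 was left out. Over all genes the number called lower was 504 with all mice and went to 968 when BLM+HBO 2, 536 when BLM 4 and 496 when BLM 3 was left out. It went to 303 when BLM 1, 314 when BLM+HBO 1 and 369 when BLM+HBO 3 was left out.

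The second list held 9 co-receptors and receptor-binding genes, with 2 called lower and none called higher, against 2.89% and 3.40% of all tested genes, and a median log2 fold change of −0.06. Dab2, an adaptor that binds both receptors, stood at 215.3, 175.2, 165.1 and 166.4 CPM in BLM and at 73.4, 156.4 and 77.2 CPM in BLM+HBO, and the ranges did not overlap. Its log2 fold change was −0.82 ± 0.25 (SE), −1.26 without BLM+HBO 2 and −0.63 without BLM+HBO 1. Cd109, a co-receptor that draws TGF-beta receptors into caveolae, had a log2 fold change of −1.48 ± 0.60 (SE), −2.43 without BLM+HBO 2 and −1.09 without BLM+HBO 1. The endothelial receptors Eng (0.16 ± 0.15) and Acvrl1 (0.17 ± 0.14) gave values above 0 with no unadjusted P below 0.05. Leaving out BLM+HBO 2 kept the number called lower at 2, leaving out any of BLM 1, BLM 2, BLM 3, BLM+HBO 1 and BLM+HBO 3 made it 1 as Cd109 lost its call, and 1 gene was called higher without BLM 3 and 1 without BLM+HBO 2.

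Of 18 Smads and regulators of Smads, 2 were lower at an unadjusted P below 0.05, 1 of which was called, against 5.54% and 2.89% of all tested genes, and none was higher. The median log2 fold change was −0.10. Pmepa1, a TGF-beta-induced gene whose product holds back receptor-activated Smads, was the called gene, at 306 ± 50.5 CPM in BLM (s.d., n = 4) and 175 ± 66.9 CPM in BLM+HBO (s.d., n = 3). Its ranges did not overlap, and its log2 fold change was −0.81 ± 0.25 (SE), and −1.12 with BLM+HBO 2 left out. Strap, which binds Smad7 and the receptors, was the other (−0.21 ± 0.094). Its unadjusted P stayed below 0.05 in 6 of 15 settings, and rose above it with upper-quartile scaling (−0.19), without the filter (−0.22) and in 6 of the 7 fits with a mouse left out, BLM+HBO 2 (−0.24) among them. The signalling Smads gave −0.11 ± 0.11 (Smad2), −0.10 ± 0.13 (Smad3) and −0.15 ± 0.14 (Smad4), none with an unadjusted P below 0.05. No gene of this list was called without BLM+HBO 1, where Pmepa1 gave −0.56.

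The last list held 20 genes known to be induced by TGF-beta. Of these, 12 were lower at an unadjusted P below 0.05, 10 were called lower, and 6 had every BLM+HBO mouse below every BLM mouse. The shares over all tested genes were 5.54%, 2.89% and 4.72%. None of the 20 was higher at an unadjusted P below 0.05. The median log2 fold change was −0.75. Tgfbi, a matrix protein named for its induction by TGF-beta, stood at 302.5, 297.0, 327.3 and 325.3 CPM in BLM and at 203.2, 247.4 and 169.3 CPM in BLM+HBO, with a log2 fold change of −0.60 ± 0.14 (SE). Its fold change came under 1.5 with upper-quartile scaling (−0.58) and when BLM 3 (−0.58), BLM 4 (−0.58) or BLM+HBO 3 (−0.48) was left out. Il11, a cytokine made by activated fibroblasts, had the largest fold change of the list at −1.65 ± 0.50 (SE), from 6.82 ± 3.19 CPM in BLM to 2.16 ± 1.35 CPM in BLM+HBO. The cell cycle inhibitor gene Cdkn2b (−0.42 ± 0.11), the smooth muscle actin gene Acta2 (−0.76 ± 0.22) and the collagen-region gene Cthrc1 (−1.16 ± 0.41) were also lower. With BLM+HBO 2 left out the log2 fold changes were −0.75 for Tgfbi, −2.21 for Il11, −0.47 for Cdkn2b, −1.02 for Acta2 and −1.74 for Cthrc1. With BLM+HBO 1 left out they were −0.59, −1.30, −0.39, −0.59 and −0.92 in the same order. The number called was 14 without BLM+HBO 2, and 3 when either BLM 1 or BLM+HBO 3 was left out. Over all genes the number called lower also moved, from 504 to 968, 303 and 369 in those fits. Cthrc1 was not called when BLM 1 (−0.78), BLM+HBO 1 (−0.92) or BLM+HBO 3 (−0.96) was left out. The level of Tagln, a member with no unadjusted P below 0.05, is uncertain because 67.9% of its exon bases lie in other genes.

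**Figure D5:**
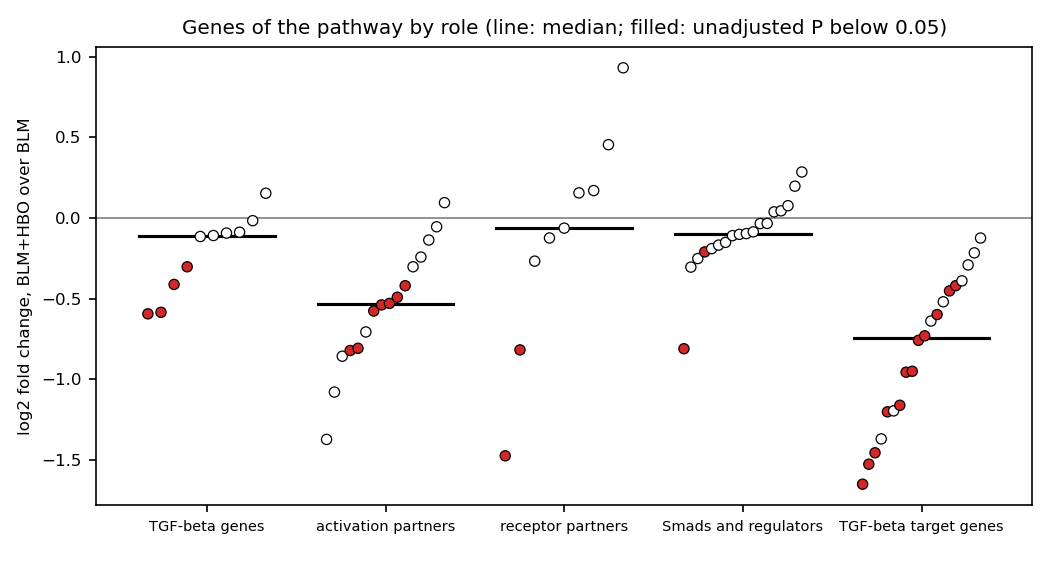
Log2 fold change of BLM+HBO over BLM (vertical axis) for each gene of the 5 lists, sorted within each list, with the median as a black line; filled points had an unadjusted P below 0.05. Medians lie at −0.11 for the TGF-beta genes, −0.53 for the activation partners, −0.06 for the receptor partners, −0.10 for the Smads and regulators and −0.75 for the target genes.

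Sums of cell type markers were read in both groups, and those of macrophages were the only ones whose ranges did not overlap. Called markers stand beside shares over all tested genes of 2.89% called lower and 3.40% called higher. The 8 fibroblast markers summed to between 6304 and 10000 CPM in BLM and between 3023 and 6764 CPM in BLM+HBO, with 5 called lower (Col1a1, Col1a2, Col3a1, Dcn and Lum) and 2 called higher (Tcf21 and Inmt). The collagen genes Col1a1, Col1a2 and Col3a1 made up most of this sum, with BLM means of 2328, 2235 and 2217 CPM. Tcf21 and Inmt had BLM means of 34.2 and 330 CPM. Col1a1 and Col3a1 are also among the 20 target genes. The 8 macrophage markers summed to between 1059 and 1486 CPM in BLM and between 665 and 1022 CPM in BLM+HBO, without overlap, and 4 of them were called lower. The 6 markers of alveolar type 2 cells, which make surfactant, ran from 8745 to 16004 CPM in BLM and from 11109 to 27489 CPM in BLM+HBO. The 6 alveolar type 1 markers (2869 to 4656 against 3784 to 4435 CPM), the 9 endothelial markers (2622 to 3247 against 2724 to 3610 CPM), the 5 smooth muscle markers (322 to 478 against 334 to 435 CPM) and the 6 T cell markers (31.2 to 50.8 against 33.9 to 69.4 CPM) overlapped between the groups. The 4 mesothelial markers summed to between 366 and 653 CPM in BLM and between 96.9 and 432 CPM in BLM+HBO, with 2 called lower. The 8 heart muscle markers ran from 59.6 to 170 CPM in BLM and from 149 to 617 CPM in BLM+HBO, with 7 called higher. The 5 megakaryocyte and platelet markers, cells rich in Tgfb1, gave 40.2 to 55.01 CPM in BLM and 135, 53.0 and 46.5 CPM in BLM+HBO, and Gp1bb of that list had no read in any mouse. Ppbp was called higher (log2 fold change 2.08), with every BLM+HBO mouse above every BLM mouse. Itga2b (0.62), Gp9 (1.22) and Pf4 (−0.16) were not called. The part of these marker levels in the values of the TGF-beta genes was not tested. Markers of lung epithelium, endothelium and fibroblasts were present in all 7 libraries.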

How the data were processed

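Bulk RNA was measured in the right lung lobes of 4 BLM and 3 BLM+HBO mice, 1 library per mouse. The authors made libraries with NEBNext Ultra, sequenced them as paired ends, used Trim Galore for trimming and Hisat2 (2.2.0) for alignment to GRCm38, and counted with featureCounts (2.2.0 in the submitters' processing notes). The deposited values were these raw counts, not normalized. Default settings of featureCounts use no strand and drop multi-mapping reads and reads shared by genes. The annotation release is not given in the sources used here. Symbols came from GENCODE vM21 for 55141 of 55401 genes, and 54821 had the same start and end there. All 7 columns of counts were assigned to a mouse by name.

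Genes were kept by filterByExpr (minimum count 10, minimum total 15), scaled by TMM (factors 0.964 to 1.04) and tested with edgeR 4.0.16 quasi-likelihood fits under R 4.3.3, with no covariate and a common biological coefficient of variation of 0.222. P values were adjusted over all 17465 tested genes by Benjamini-Hochberg and are two-sided. Log2 CPM used a prior count of 2, and CPM per kilobase used the exon length in the deposited table. Genes with any read numbered 23811 to 25989 per mouse. The scripts were tested on simulated data. Alternatives were DESeq2 1.42.0, limma-trend 3.58.1, RLE and upper-quartile factors, no filter, 1 CPM in 3 mice, a replicate block and leaving out each mouse.

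The 10 genes and the other lists were chosen with earlier results of these data known. Named from each pathway list were the genes with an unadjusted P below 0.05, at most 5 by lowest P, and for each TGF-beta gene past that limit the 3 nearest genes in centred log2 CPM. Fbn1 and genes given with a P above 0.05 were named after their values were seen.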

Additional observations from a re-analysis of the deposited data

Results flagged for a closer look

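In the BLM group, 20 sets of 4 values were examined for a single mouse far from the others, as the gap to the nearest mouse divided by the range, and 5 passed Dixon's 95% critical value. Chance flags about 1 in 20 such sets. For log2 CPM of Ltbp4 the value was 0.845, with BLM 1 at 315.4 CPM and the other three mice between 436.6 and 463.4 CPM. BLM 1 also stood apart in the Ltbp1 share of the 3 latency proteins (0.847), where it had 20.9% and the next mouse 12.3%, and in the Ltbp4 share (0.84), where it had 49.0% and the next mouse 56.3%. The ratio of Ltbp1 to Ltbp4 per kilobase gave 0.866, with 0.428 in BLM 1 and 0.187 to 0.219 in the other three mice. These 4 values share the same mouse and the same genes and are not separate findings. The total count gave 0.971, with BLM 4 at 19002242 counts and the other three mice between 18436336 and 18452895. The check was run on the BLM group only, and the BLM+HBO mice were not examined in this way.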

How the results depend on the processing

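Under 14 alternatives, Tgfb1 (log2 fold change −0.38 to −0.23), Tgfb3 (−0.70 to −0.41), Tgfbr2 (−0.52 to −0.34), Ltbp1 (−0.90 to −0.44) and Smad7 (−0.17 to −0.04) stayed below 0. The lowest adjusted P was 0.045 for Tgfb3, in edgeR without a filter on low counts, where it was the one of the 10 TGF-beta genes below 0.05. Over its settings the adjusted P of Tgfb3 ran from 0.045 to 0.802 and that of Ltbp1 from 0.058 to 0.802. Signs turned with a mouse left out for Tgfb2 (−0.19 to 0.0048), Tgfbr1 (−0.19 to 0.023), Tgfbr3 (−0.20 to 0.12), Ltbp3 (−0.35 to 0.094) and Ltbp4 (−0.052 to 0.25), and Tgfbr3 also gave 0.012 with upper-quartile factors and 0.0067 with the replicate block. The cause was not tested.

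The 2 TGF-beta genes called lower became 0 with upper-quartile factors, 1 with a filter of 1 CPM in 3 mice, 4 with no limit on the fold change and 0 to 2 with a mouse left out. The activation partners called lower went from 2 to 6 with limma-trend, 5 without a filter, 5 with the replicate block and 1 to 10 with a mouse left out. The receptor partners called lower went from 2 to 1 with DESeq2 and 1 to 2 with a mouse left out, and those called higher from 0 to 1 with DESeq2, limma-trend, no filter and the replicate block, and 0 to 1 with a mouse left out. With a mouse left out, the Smads and regulators called lower ran from 0 to 1 and the target genes called lower from 3 to 14. Over all genes, the 1098 called became 1940 without a filter, 1861 with no limit on the fold change and 659 to 1914 with a mouse left out. Without a filter 863 were called lower and 1077 higher, and with a mouse left out these ran from 303 to 968 and from 345 to 946. Genes at an adjusted P below 0.05 numbered 128 in DESeq2, 387 without a filter and 0 to 267 with a mouse left out, with 267 without BLM+HBO 2.

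The groups share replicate numbers, but deviations of same-numbered mice correlated at −0.00797, −0.0660 and 0.161, so the numbers were not taken to pair the mice, and not every mouse correlated best with its own number. With the block 1258 genes were called. The number of mice, with 3 in the smaller group, limits the precision, which the printed intervals give.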
